A study of Danio rerio with 26 samples.

Results

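The mitochondrial ribosomal protein genes of zebrafish embryos were taken as every gene whose symbol begins with mrpl or mrps followed by a digit. They numbered 73 of the 30919 genes listed for magoh mutants, 73 of 30948 for rbm8a mutants at 21 hours post-fertilization (hpf), 73 of 30944 for rbm8a mutants at 27 hpf and 73 of 28441 for upf1 morphants. By symbol, 45 encode proteins of the large subunit (mrpl) and 28 proteins of the small subunit (mrps). All 73 passed the minimum level of 0.5 FPKM (sequenced fragments scaled by gene length and library size) in each comparison. Of these genes, 72 matched a symbol in the RefSeq annotation of assembly GRCz12tu, which was used for names and gene neighbours alone. The symbol without a match was mrps36, whose human counterpart is now assigned to the 2-oxoglutarate dehydrogenase complex. The genes mrpl33 and mrps12 of that annotation were not analysed here, and its mrpl58 is listed in the tables under the earlier symbol ict1, among the mitoribosomal proteins with other symbols described last.

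Mitochondria make a small set of respiratory chain proteins on ribosomes of their own. The ribosomal RNAs of these mitoribosomes come from mitochondrial DNA, while all of their proteins are encoded in the nucleus, translated in the cytosol and imported. Many of the proteins have a counterpart in bacterial ribosomes, and others, such as Mrpl39, occur only in mitochondria. The human counterparts of mrps18a and mrps30 sit in the large subunit in spite of their symbols. Upf1 is the RNA helicase at the centre of nonsense-mediated decay (NMD), which degrades mRNAs that end translation too early. Rbm8a and Magoh are core proteins of the exon junction complex (EJC), which marks spliced mRNA upstream of exon junctions and helps NMD to recognize its targets.

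RNA-Seq of whole embryos was compared in 4 experiments. Homozygous magoh mutants (allele oz37) at 21 hpf were compared with siblings of the same line, and homozygous rbm8a mutants (allele oz36) at 21 hpf and at 27 hpf with theirs. Both lines were made by CRISPR/Cas9 in the AB strain, their sibling groups mix wild-type with heterozygous embryos, and mutant embryos still hold maternal Rbm8a or Magoh early on. Each of these groups has 3 libraries of 25 embryos, made from RNA depleted of ribosomal RNA. The paper states that some or all replicates of each such experiment were sequenced in separate runs. It reports that this added variability, and fitted factors of unwanted variation to account for it. Labels do not name the run of a library. Embryos injected at the 1-cell stage with 2 ng of a morpholino that blocks splicing of upf1 (morphants) were compared at 12 hpf with uninjected wild-type controls, in 2 libraries of 30 embryos a group made from poly(A) RNA. The controls received no control morpholino, so an effect of injection cannot be told apart from that of upf1. Nothing shows that replicate libraries came from separate clutches, so p-values measure the spread between these libraries. In whole embryos, fewer cells of a type and less RNA per cell cannot be told apart.

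Depth recovered from the tables came to 91551783 and 93157779 reads in the morphant libraries, against 73345144 and 81602044 in controls, and ranged between 1561184 and 95877745 reads in the 18 libraries of the mutant tables. In morphants upf1 itself stood at 30.3 and 31.3 FPKM, against 45.2 and 45.9 in controls, a fall of 0.55 on the log2 scale (SE 0.037, limma adjusted p = 0.0010). In the mutant tables the targeted gene did not separate the labels. The FPKM of magoh was 17.0, 3.67 and 3.58 where the label reads magoh mutant, against 4.42, 13.6 and 6.51 where it reads sibling. The FPKM of rbm8a at 21 hpf was 7.01, 7.28 and 8.39 where the label reads rbm8a mutant, against 6.99, 13.2 and 13.3 where it reads sibling. Its FPKM at 27 hpf was 3.69, 3.65 and 14.4 under the mutant label, against 2.82, 12.7 and 10.7 under the sibling label. The paper, with a test on read counts, reports rbm8a and magoh transcripts lower in the mutants of each gene. In the limma fits by label the log2 fold change of magoh was -0.32 (SE 0.22). That of rbm8a was -0.45 (SE 0.33) at 21 hpf and -0.22 (SE 0.58) at 27 hpf. Each value was negative, and none passed the test. The source of this difference from the paper was not tested. Groups follow the labels all the same, and are written as labelled mutant or labelled sibling.

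The first question was whether mrpl39 (ENSDARG00000041570) fell alone after upf1 knockdown. This gene was chosen with an earlier result of these same data known, so its p-values are no independent test. mrpl39, a large subunit protein found only in mitochondria, stood at 5.25 and 5.31 FPKM in morphants, against 18.5 and 18.6 FPKM in controls. Both morphant libraries lay far below both controls, with almost no spread within a group. The mean of 5.28 ± 0.0448 FPKM in morphants was 28.5% of the mean of 18.5 ± 0.0315 FPKM in controls (SD, n = 2 each). Behind these values are 1240 and 1263 reads in morphants and 3430 and 3810 in controls. In limma on log2(FPKM + 1), mrpl39 fell by 1.64 (SE 0.044, 95% interval -1.74 to -1.53, adjusted p = 7.94e-05 over 17057 genes). Among all genes tested, 1 gene had a lower value, ivns1abpb, named here after its value was seen, at -1.76. By level, mrpl39 ranked 72 of the 73 genes in morphants and 21 in controls.

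**Figure D1:**
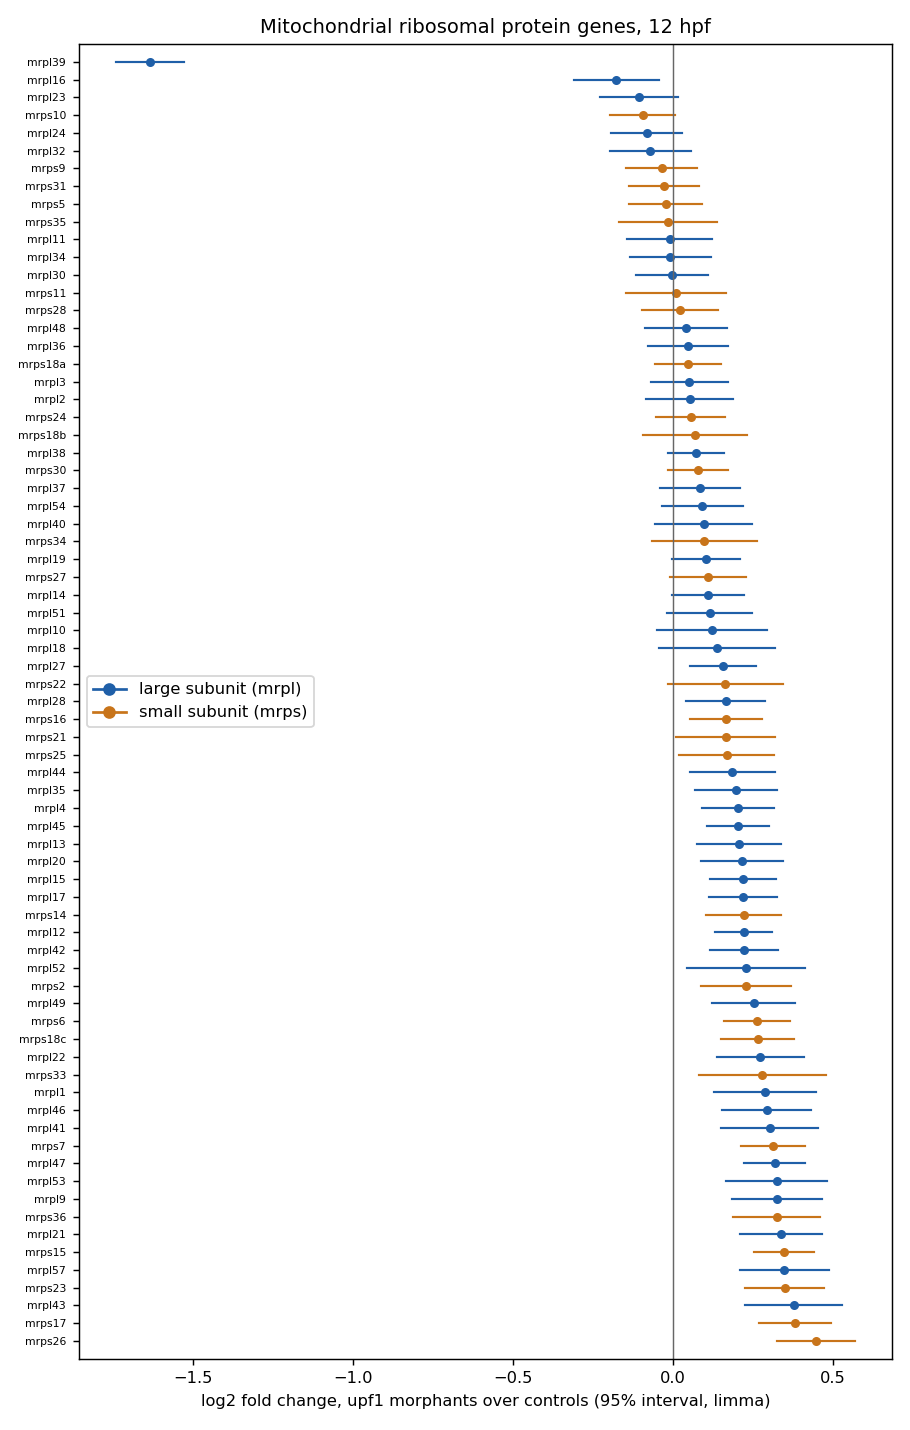
log2 fold change of each of the 73 mitochondrial ribosomal protein genes in upf1 morphants over controls at 12 hpf (dots, x axis) with its 95% interval from limma (lines), genes down the page from lowest to highest, large subunit in blue and small subunit in orange. mrpl39 stands alone at -1.64, and the other 72 genes lie between -0.18 and 0.45.

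Of the 73 genes, mrpl39 was the 1 gene called lower in morphants, and 0 were called higher, where a gene is called if its adjusted p is under 0.05 and it differs 1.5-fold or more. Over all 17057 genes, 1.18% were called lower and 1.12% higher, so the count of 1 in 73 (1.37%) is near the background. No other gene of the group came close to it. The next lowest was mrpl16, a large subunit protein with a bacterial counterpart, at 22.2 and 20.6 FPKM in morphants against 25.2 and 23.4 in controls. Its groups did not overlap, but its value of -0.18 (SE 0.054) did not pass the test (limma adjusted p = 0.063). mrpl23, whose bacterial counterpart sits where the new protein leaves the ribosome, had a value of -0.11 (adjusted p = 0.17), and mrps10, a small subunit protein, one of -0.09 (adjusted p = 0.15).

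The rest of the group leaned the other way, by small amounts. With mrpl39 left aside, 60 of 72 genes had a log2 fold change above 0, against 49.4% of all genes tested, and the median was 0.17, against -0.0032 over all genes. With no minimum fold, 32 of the 73 genes were higher at an adjusted p under 0.05 (43.8%), against 11.2% of all genes, and mrpl39 was the 1 lower, against 12.8% of all genes. By symbol, both subunits took part, with 21 of 45 mrpl genes and 11 of 28 mrps genes among the 32. Medians over all mrpl and all mrps genes were 0.16 and 0.17. The 11 include mrps36 (log2 fold change 0.33, limma adjusted p = 0.012), whose human counterpart is assigned to another complex, as given above. None of the 32 reached 1.5-fold. At an unadjusted p under 0.05, 38 genes were higher and 2 lower, against 18.7% and 20.2% of all genes. The count of 32 was 9 without morphant replicate 1 (3.88% of all genes), 17 without morphant replicate 2 (4.78%), 11 without control replicate 1 (3.96%), 21 without control replicate 2 (5.55%) and 18 with no minimum level (3.44%). It was 34 with a minimum of 2 FPKM (15.1%), and the median stayed between 0.14 and 0.18 in every alternative run.

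mrps26, a small subunit protein found only in mitochondria, had the highest value of the group. It stood at 13.6 and 14.5 FPKM in morphants, against 9.89 and 10.2 in controls, a log2 fold change of 0.45 (SE 0.050, adjusted p = 0.0038). mrps15, which binds the small subunit RNA in bacteria, stood at 20.8 and 21.3 FPKM in morphants, against 16.3 in both controls. The groups did not overlap, and the log2 fold change was 0.35 (SE 0.039, adjusted p = 0.0037), the smallest p among the genes that were higher. mrps17, another small subunit protein with a bacterial counterpart, stood at 15.5 FPKM in both morphants, against 12.0 and 11.3 in controls (log2 fold change 0.38, SE 0.047, adjusted p = 0.0047). mrpl47, at the outlet of the large subunit for new proteins, stood at 18.7 and 18.3 FPKM in morphants, against 14.6 and 14.7 in controls (log2 fold change 0.32, SE 0.040, adjusted p = 0.0049). In each of these 4 genes both morphant libraries lay above both controls, as in 51 of the 73 genes (69.9%), against 32.4% of all genes tested. The morphants lay below the controls in 5 genes, against 33.9% of all genes, and these were mrpl39, mrpl16, mrpl23, mrpl24 and mrps10.

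In mean FPKM over the 4 libraries the group ranged between 4.25 and 44.2. The 3 genes of highest mean level were mrpl2, mrps6 and mrpl20, and the 3 of lowest mean level mrps33, mrpl10 and mrps25. mrpl2, a large subunit protein near the site where peptide bonds form, stood at 46.7 and 43.2 FPKM in morphants against 45.1 and 41.6 in controls, with overlapping groups and a log2 fold change of 0.05 (adjusted p = 0.53). mrps6, a small subunit protein with a bacterial counterpart, stood at 49.0 and 46.0 FPKM in morphants against 39.1 and 39.6 in controls, higher by 0.26 on the log2 scale (SE 0.043, adjusted p = 0.010). mrpl20 had a log2 fold change of 0.22 (adjusted p = 0.033). At the low end mrps33 stood at 4.36 and 5.16 FPKM in morphants against 3.66 and 3.80 in controls, with a log2 fold change of 0.28 that did not pass the test (adjusted p = 0.054). mrpl10, a protein of the stalk that recruits translation factors, had 0.12 (adjusted p = 0.25), and mrps25 0.17 (adjusted p = 0.095). mrpl39 in morphants, at a mean of 5.28 FPKM, lay among these lowest genes.

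An intron in the 3′UTR can expose an mRNA to NMD, by the usual rule when it lies farther from the stop codon than a proximal one. The paper found only a small share of genes with a proximal intron raised, and proposes that many such mRNAs may not be NMD targets. A list of genes with an intron in the 3′UTR accompanied the study. It names mrps6 and mrps22, both as genes whose intron is proximal to the stop codon. Only some rows of that list were used here, so the other genes of the group are left unassigned. mrps22, a small subunit protein found only in mitochondria, stood at 7.25 and 7.10 FPKM in morphants against 6.79 and 5.83 in controls. Its log2 fold change of 0.16 (SE 0.074) did not pass the test (adjusted p = 0.16).

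Genes beside mrpl39 in RefSeq order were read as well, after its value was seen. On one side lies mrpl16, with other genes between, whose values are given above. Next to mrpl39 on the other side, jam2a, a junctional adhesion protein, stood at 5.34 and 3.67 FPKM in morphants against 4.21 and 3.95 in controls, with overlapping groups. atp5j, a subunit of the mitochondrial ATP synthase named atp5pf in RefSeq and next after jam2a, stood at 27.2 and 25.7 FPKM in morphants against 26.4 and 25.7 in controls. A log2 fold change of 0.02 (adjusted p = 0.73) was fitted for it. appa, an amyloid precursor protein, was lower at 31.2 and 34.7 FPKM in morphants against 42.9 and 45.5 in controls (log2 fold change -0.41, adjusted p = 0.0074). LOC101885604, on the side of mrpl16, and cyyr1, beyond appa, had log2 fold changes of -0.10 (adjusted p = 0.39) and -0.07 (adjusted p = 0.38). No gene of the annotation overlaps mrpl39, while 22 of the 72 genes matched in RefSeq overlap another gene. These overlaps are those of GRCz12tu, whereas reads were mapped to GRCz10. Among the genes named here the overlapping ones include mrpl2, mrpl4, mrpl16, mrpl24, mrpl34, mrpl47, mrpl51, mrpl53, mrps16, mrps17, mrps22 and mrps26. Reads from any exon stretch shared with the neighbour cannot be told apart from its reads where strand was not used. Whether such genes share exons with the neighbour was not examined. The morphant libraries are not stated to keep strand.

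Marker genes of several tissues were lower in morphants. The 1 measured notochord marker, col2a1a, stood between 15.6 and 15.7 FPKM in morphants and between 27.4 and 30.8 in controls, the 4 nervous system markers summed to 67.0 to 70.6 FPKM in morphants and 80.0 to 87.8 in controls, and the 4 muscle markers to 23.5 to 25.0 FPKM in morphants and 29.3 to 29.5 in controls. Of the 4 muscle markers, 2 had a mean of 1 FPKM or more. The 1 measured neural crest marker stood between 5.84 and 6.36 FPKM in morphants and between 9.34 and 9.80 in controls. The 2 eye and lens markers, 1 of them at a mean of 1 FPKM or more, summed to 6.69 to 6.94 and 11.5 to 12.2. Epidermal markers overlapped, at 5013 to 5539 FPKM in morphants and 5436 to 5677 in controls, as did blood markers, which were near the floor. The part of these tissues in the values of the mitochondrial ribosomal genes was not tested.

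**Figure D2:**
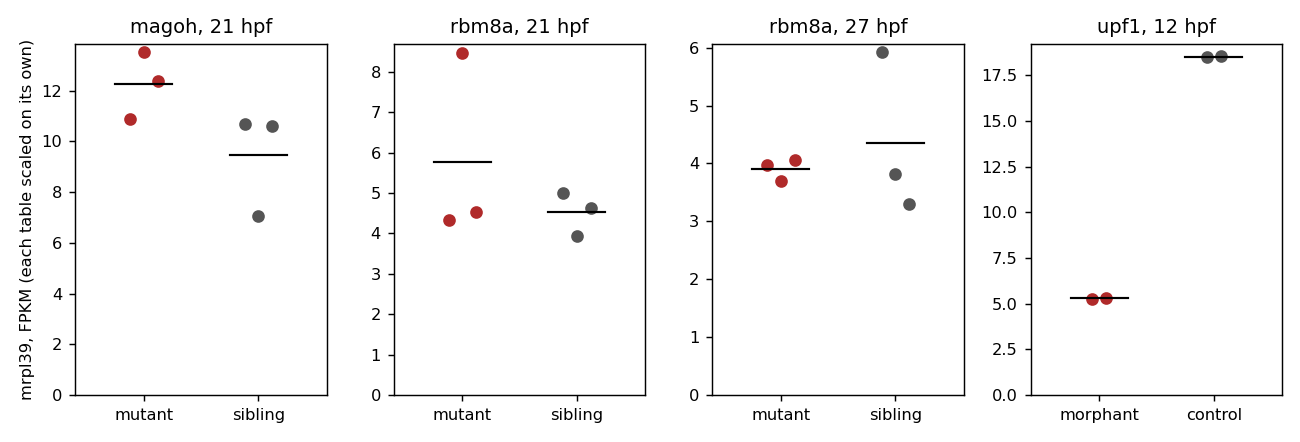
FPKM of mrpl39 (y axes, from 0) in every library of the 4 comparisons, libraries labelled mutant or morphants on the left of each panel and siblings or controls on the right (dots, 1 per library; lines, group means). The morphants at 5.25 and 5.31 lie far below the controls at 18.5 and 18.6, whereas in the mutant panels the means differ less; each panel was scaled separately by the authors.

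In libraries labelled mutant, the mean of mrpl39 was above that of siblings at 21 hpf in both lines, and the groups overlapped in the rbm8a line at both ages. At 21 hpf it stood at 10.9, 13.5 and 12.4 FPKM in libraries labelled magoh mutant, against 10.7, 7.06 and 10.6 in those labelled sibling. All 3 lay above all siblings, the nearest pair by a small margin, and the log2 fold change of 0.38 (SE 0.21) did not pass the test (adjusted p = 0.85). In the rbm8a line at 21 hpf it stood at 4.33, 8.47 and 4.53 FPKM in libraries labelled mutant, against 5.00, 3.93 and 4.62 in those labelled sibling. The high value is that of mutant replicate 2, the library with the fewest reads, where it rests on 63 reads. At 27 hpf it stood at 3.97, 3.69 and 4.06 FPKM in libraries labelled mutant, against 5.93, 3.82 and 3.31 in those labelled sibling. The log2 fold changes of mrpl39 in the rbm8a line were 0.06 (SE 0.21, adjusted p = 1) at 21 hpf and -0.07 (SE 0.24, adjusted p = 0.89) at 27 hpf. Whether the change of mrpl39 differs between the morphants and the mutants was not tested, since stage, library type and scaling differ between the tables and cannot be told apart from the perturbation.

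Libraries of the mutant tables stood apart in the level of the whole group, without regard to label. The median FPKM of the 73 genes was 9.06, 2.79 and 2.84 in the libraries labelled magoh mutant, against 2.86, 5.03 and 3.32 in those labelled sibling. Mutant replicate 1 and sibling replicate 2 were the 2 high libraries, 1 on each side of the label. The median FPKM of all genes tested was lowest in these 2, at 4.06 and 3.78, against 4.55 to 4.75 in the rest. Other genes spread widely in this table too. Epidermal markers summed to 109 to 2711 FPKM in libraries labelled magoh mutant and 109 to 676 in those labelled sibling. For rbm8a at 21 hpf the median was 5.10, 2.21 and 3.87 FPKM in libraries labelled mutant, against 4.02, 4.47 and 3.99 in those labelled sibling. The low library, mutant replicate 2, has 1561184 reads and lists 9 of the 73 genes at 0. At 27 hpf the median was 4.70, 4.59 and 3.93 FPKM in libraries labelled mutant, against 2.40, 4.45 and 3.31 in those labelled sibling.

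**Figure D3:**
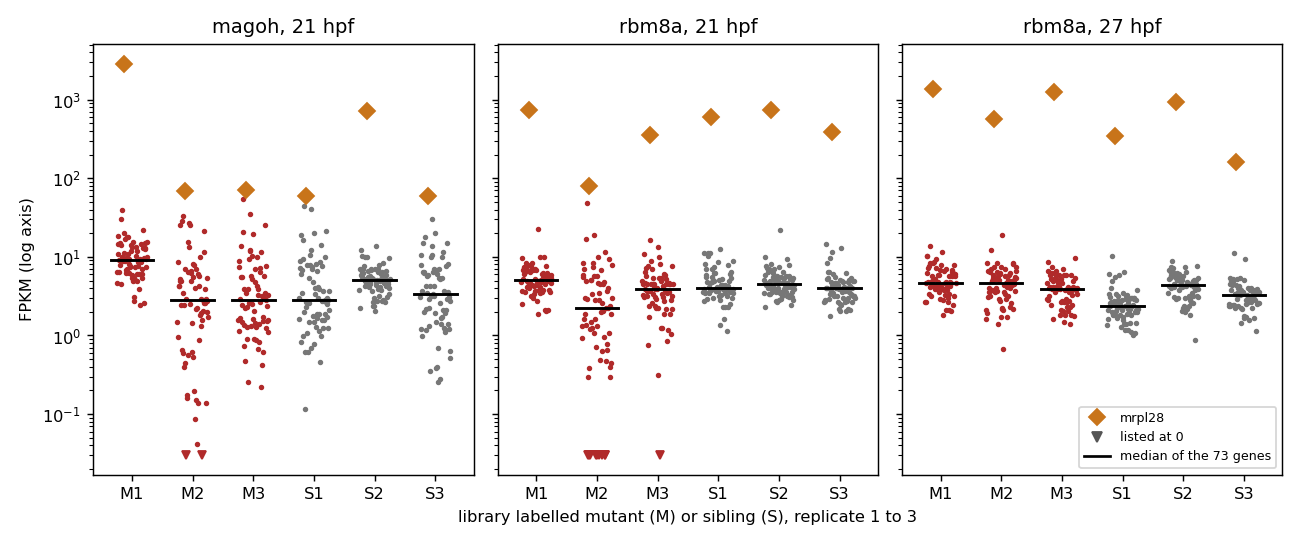
FPKM (log axis) of the 73 mitochondrial ribosomal protein genes in each library labelled mutant (M, red) or sibling (S, grey) of the 3 mutant tables; black lines are medians, orange diamonds mrpl28, triangles genes listed at 0. mrpl28 lies above all other genes of the group in every library, and magoh mutant replicate 1 and sibling replicate 2 have the highest medians of their table, 9.06 and 5.03.

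mrpl28, a large subunit protein with a bacterial counterpart, had the highest level of the group in every mutant-table library. In the magoh line it stood at 2877, 68.4 and 71.2 FPKM in libraries labelled mutant, against 59.4, 721 and 60.2 in those labelled sibling. The same 2 libraries as above were the high ones, and mrpl28 took 79.5% of the summed FPKM of the group in mutant replicate 1 and 65.0% in sibling replicate 2, against 12.5% to 14.96% in the other 4. The mean FPKM of all genes was also high there, at 409 and 140 against 25.8 to 29.7. In the rbm8a line at 21 hpf mrpl28 stood at 738, 79.4 and 358 FPKM in libraries labelled mutant, against 610, 738 and 383 in those labelled sibling. In the poly(A) libraries at 12 hpf it stood at 13.8 and 12.9 FPKM in morphants, against 11.6 and 12.0 in controls, and ranked 48 among the 73 genes. The part of library preparation, of sequencing run and of reads from other RNAs in these levels was not tested.

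None of the 73 genes was called in any mutant comparison, in either direction, and none of all genes tested was called either (0%). The paper, with a test on read counts, reports significantly up- and downregulated genes in both mutant lines. The lack of calls holds for these limma fits on FPKM with groups by label, and does not show that expression was unchanged. Why the outcomes differ was not tested. Counts at an unadjusted p under 0.05 in limma, which control no error rate over genes, are given next for the same fits. They came to 3 higher and 1 lower of 73 in the magoh line, against 2.41% and 1.99% of all 30281 genes. For rbm8a they came to 2 higher and 0 lower at 21 hpf, against 0.773% and 1.4% of 30411 genes, and to 7 higher and 0 lower at 27 hpf, against 6.21% and 8.64% of 28845 genes. The values of the genes with the smallest p follow.

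mrpl13, a large subunit protein with a bacterial counterpart, stood at 18.7, 4.28 and 1.68 FPKM in libraries labelled magoh mutant, against 0.822, 5.86 and 0.984 in those labelled sibling. The groups overlap, and the log2 fold change of 1.02 (SE 0.30) comes from a fit that also removes 1 factor of unwanted variation (adjusted p = 0.85). mrpl2 stood at 29.9, 28.5 and 20.7 FPKM in libraries labelled mutant, against 16.3, 7.73 and 17.8 in those labelled sibling. It was 1 of 2 genes of the group, with mrpl39, whose groups did not overlap, against 1.93% of all genes on that side (0 genes lay on the other side, against 2.04%), and its log2 fold change was 0.95 (SE 0.33, adjusted p = 0.85). mrpl38, found only in mitochondria, had a log2 fold change of 0.87 (SE 0.34), and mrpl28 one of 0.49 (SE 0.22), both at an adjusted p of 0.85. On the low side mrps21, a small subunit protein with a bacterial counterpart, stood at 9.32, 1.33 and 0.222 FPKM in libraries labelled mutant, against 2.71, 8.40 and 2.14 in those labelled sibling. Its value of -0.78 (SE 0.33, adjusted p = 0.85) is followed by those of mrps16 (-0.67), mrpl10 (-0.62) and mrpl54 (-0.67), none past the test.

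Over the group the median log2 fold change was 0.10 in the magoh line, against 0.05 over all genes, and 41 of 73 genes (56.2%) were above 0, against 56.1%. The group median changed sign among the alternatives, between -0.12 and 0.27. After mrpl28 the genes of highest mean level were mrpl20, at 39.0, 33.2 and 55.3 FPKM in libraries labelled mutant against 44.7, 9.82 and 57.3 in those labelled sibling, and mrpl4, which lines the tunnel for new proteins, at 8.001, 26.8 and 35.4 FPKM in libraries labelled mutant against 40.2, 6.71 and 30.01 in those labelled sibling. Both genes were low in a library in which mrpl28 was high. The 3 genes of lowest mean level were mrps22, mrps14 and mrpl54. mrps6 and mrps22 had log2 fold changes of 0.52 (adjusted p = 0.85) and -0.25 (adjusted p = 0.90).

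In the rbm8a line at 21 hpf the group sat close to all genes tested, with a median log2 fold change of -0.04 against -0.0035 and 31 of 73 genes (42.5%) above 0 against 49.4%. Among the alternatives this median lay between -0.22 and 0.04. mrpl52, a large subunit protein found only in mitochondria, stood at 4.93, 2.80 and 5.46 FPKM in libraries labelled mutant, against 2.85, 3.60 and 2.41 in those labelled sibling. mrps17 stood at 5.99, 2.07 and 5.97 FPKM in libraries labelled mutant, against 3.76, 4.06 and 2.03 in those labelled sibling. In both genes mutant replicate 2 fell among the siblings, and the log2 fold changes of 0.59 (SE 0.21) and 0.64 (SE 0.23) did not pass the test (adjusted p = 1 each). mrpl1 and mrps9 had values of 0.34 and 0.29.

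On the low side mrps26 stood at 2.03, 0.790 and 1.17 FPKM in libraries labelled rbm8a mutant at 21 hpf, against 2.27, 3.12 and 2.12 in those labelled sibling, without overlap. mrps33 was the other gene whose labelled mutants all lay below the siblings, against 2.44% of all genes. Their log2 fold changes were -0.46 (SE 0.21) and -0.30 (SE 0.18), at an adjusted p of 1. mrps24, mrpl24 and mrpl49 had values of -0.996, -0.55 and -0.83, and were lowest in mutant replicates 2 or 3, the libraries with the fewest reads. In mrps24, for example, the labelled mutants stood at 5.66, 0.478 and 0.848 FPKM, against 7.78, 4.47 and 5.01 in siblings, and its lowest library holds 1 read. mrps6 and mrps22 had values of -0.09 and -0.13, and mrpl53 one of -0.84 with 0 FPKM in mutant replicate 3. The genes of highest mean level after mrpl28 were mrpl51 and mrpl20, and mrps22, mrps26 and mrps33 had the lowest mean levels.

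At 27 hpf most genes of the group had higher values in libraries labelled rbm8a mutant, without a call. Of the 73 genes, 69 (94.5%) had a log2 fold change above 0, against 50.7% of all genes, and the median was 0.33, against 0.01. The median of the group was above 0 in each of the 14 alternatives run, between 0.19 and 0.48, but its distance from other genes depended on the minimum level. With a minimum of 2 FPKM the median was 0.33 over the 72 genes of the group that passed, against 0.24 over all 14753 genes tested. In 15 of the 73 genes (20.5%) all libraries labelled mutant lay above all siblings, against 10.5% of all genes, and in 0 they lay below, against 9.92%. Sibling replicate 1 had the lowest median of the group in this table, 2.40 FPKM. Muscle markers summed to 404 to 571 FPKM in libraries labelled mutant and 208 to 337 in those labelled sibling, and epidermal markers to 1045 to 1611 FPKM in libraries labelled mutant and 443 to 1025 in those labelled sibling. Markers of nervous system, blood, notochord, neural crest, and eye and lens overlapped between the labels. The part of any of these tissues in the values of the group was not tested.

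mrps33, found only in mitochondria and the lowest of the group by mean level here, stood at 2.45, 2.16 and 1.77 FPKM in libraries labelled mutant at 27 hpf, against 1.09, 0.882 and 1.13 in those labelled sibling. The log2 fold change was 0.60 (SE 0.17), with the smallest p of the group (limma adjusted p = 0.32). mrps30 stood at 6.43, 8.38 and 4.89 FPKM in libraries labelled mutant, against 3.02, 3.74 and 3.74 in those labelled sibling, also without overlap (log2 fold change 0.68, SE 0.22, adjusted p = 0.33). mrpl41, a large subunit protein found only in mitochondria, stood at 4.85, 5.11 and 5.92 FPKM in libraries labelled mutant, against 2.55, 4.50 and 2.25 in those labelled sibling (log2 fold change 0.69, SE 0.25, adjusted p = 0.33). mrps6 had a value of 0.60 (adjusted p = 0.33), with all labelled mutants above all siblings. mrpl28 stood at 1355, 565 and 1245 FPKM in libraries labelled mutant, against 348, 944 and 159 in those labelled sibling. Sibling replicate 2 fell among the libraries labelled mutant, and the log2 fold change of 1.57 (SE 0.53) had an adjusted p of 0.33. Without that library mrpl28 was called higher, at 2.19 (SE 0.41, adjusted p = 0.034), 1 of 370 genes called higher among 29598 tested. The 4 genes below 0 were mrpl17 (-0.40), mrps22 (-0.13), mrps14 (-0.07) and mrpl39 (-0.07), each at an adjusted p of 0.44 or more. mrpl51 and mrpl20 followed mrpl28 in mean level, and mrpl53 and mrps22 stood just above mrps33.

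**Figure D4:**
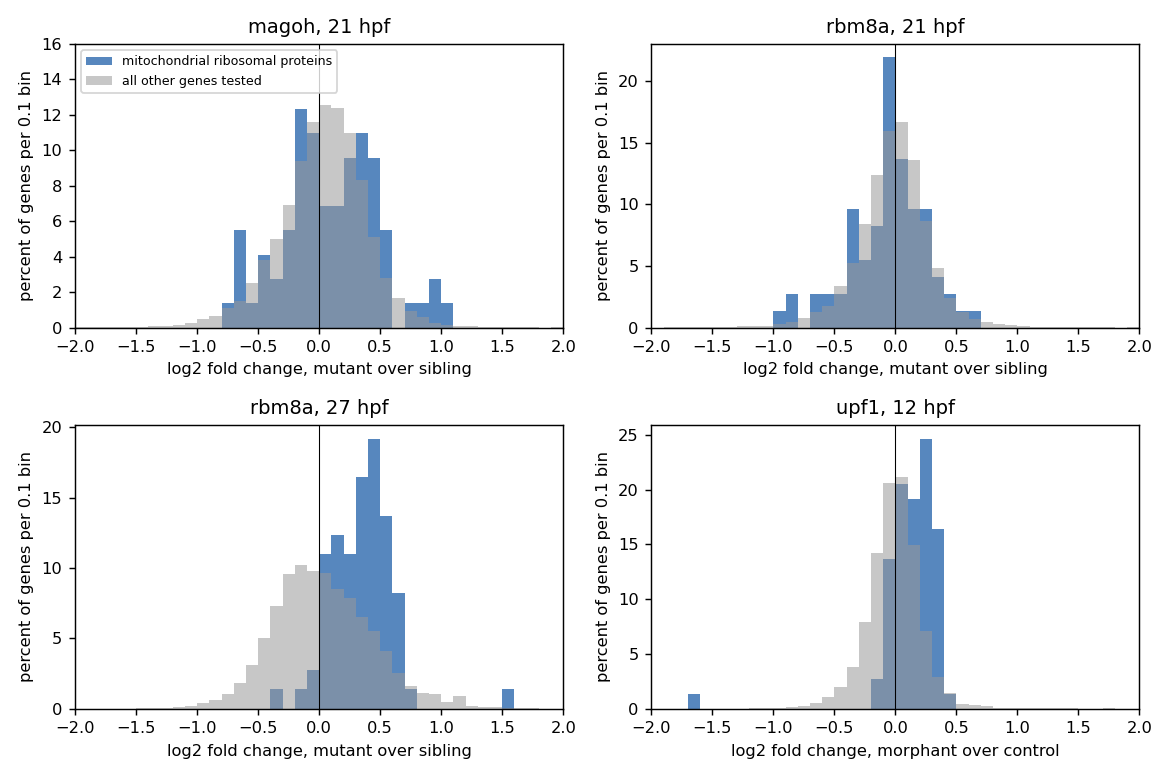
Distribution of log2 fold changes (x axes; mutant over sibling as labelled, or morphant over control) of the 73 mitochondrial ribosomal protein genes (blue) and of all other genes tested (grey) in the 4 comparisons, as percent of genes per bin of 0.1 (y axes). With a minimum of 0.5 FPKM the group lies to the right of other genes at 27 hpf in the rbm8a line and at 12 hpf in upf1 morphants, with medians of 0.33 and 0.16, and mrpl39 is the single bar at the far left after upf1 knockdown.

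The columns of each mutant table alternate between labels, and were also read by place, the first 3 against the last 3, as a description with no test and with no condition given to a place. By place rbm8a at 27 hpf was at 3.69, 2.82 and 3.65 FPKM in the first 3 columns and at 12.7, 14.4 and 10.7 in the last 3, without overlap. At 21 hpf rbm8a was at 7.01, 6.99 and 7.28 FPKM in the first 3 columns. It was at 13.2, 8.39 and 13.3 in the last 3, again without overlap. In the magoh table magoh overlapped by place, at 17.0, 4.42 and 3.67 FPKM against 13.6, 3.58 and 6.51. mrpl39 averaged 11.7 FPKM in the first 3 columns and 10.01 in the last 3 in the magoh table, 5.93 and 4.36 in the rbm8a table of 21 hpf, and 4.53 and 3.73 in that of 27 hpf. On the log2 scale it differed by 0.23, 0.33 and 0.21.

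For the group as a whole the median difference by place was 0.20 in the magoh table (0.02 over all genes), -0.13 in the rbm8a table of 21 hpf (-0.03 over all genes) and 0.07 in that of 27 hpf (0.01 over all genes). All first 3 columns lay above all last 3 for mrpl3, mrpl42 and mrps28 in the magoh table, for mrpl2, mrpl4, mrpl38 and mrpl43 in the rbm8a table of 21 hpf and for mrpl2 in that of 27 hpf. They lay below for mrpl35 and mrps22 at 21 hpf and for mrpl17 and mrpl34 at 27 hpf, and for 0 genes in the magoh table. These counts of 3, 4 and 1 above stand beside 1.87%, 2.88% and 3.19% of all genes, and those of 0, 2 and 2 below beside 2.34%, 2.47% and 3.45%. mrpl2 stood at 8.32, 10.1 and 7.05 FPKM in the first 3 columns of the 27 hpf table and at 6.47, 6.16 and 5.30 in the last 3. The lean of 69 of 73 genes above 0 by label at 27 hpf was 47 of 73 (64.4%) by place, against 51.1% of all genes. By place 50 of 73 genes (68.5%) were above 0 in the magoh table, against 52.8% of all genes, and 25 of 73 (34.2%) in the rbm8a table of 21 hpf, against 46.7%.

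Other genes that serve mitochondrial translation were described by counts, in lists whose names are approximate. The list of mitoribosomal proteins under other symbols includes oxa1l, which is not a ribosomal protein. That of translation factors was drawn up with mtrex, which is not a mitochondrial translation factor. The synthetase list was drawn up with qrsl1, gatb and gatc, which are not synthetases. Cytosolic ribosomal proteins were taken by symbol, mainly rpl or rps followed by a digit, a pattern that kinases named rps6k also fit. That list was not cleared of other genes. Its mean levels at 27 hpf ran from 0.908 to 519 FPKM, with a median of 116. After upf1 knockdown 1.12% of all genes tested were called higher and 1.18% lower. None of 7 mitoribosomal proteins under other symbols, 11 mitochondrial translation factors, 27 assembly and rRNA maturation genes and 17 mitochondrial aminoacyl-tRNA synthetases was called. With no minimum fold 3, 2, 7 and 1 of them were higher at an adjusted p under 0.05, against 11.2% of all genes, and 0 were lower, against 12.8%, and the medians were 0.19, 0.08, 0.11 and 0.04. The 1 of 17 synthetases is below the share of all genes. dap3, a GTP-binding small subunit protein, was higher by 0.27 (SE 0.041, adjusted p = 0.0086), tsfm, the mitochondrial elongation factor Ts, by 0.24 (adjusted p = 0.019), and ddx28, an RNA helicase of large subunit assembly, by 0.30 (adjusted p = 0.012). Cytosolic ribosomal proteins leaned the other way in the same libraries, with 6 of 85 above 0, against 49.4% of all genes, and a median of -0.10. Of the 85, 1 was called lower, rpl22l1 at -1.06 (limma adjusted p = 9.95e-05), near the 1.18% of all genes called lower. With no minimum fold 2 were higher and 13 lower, against 11.2% and 12.8% of all genes. The other list members named by the same rule were oxa1l, which inserts new proteins into the inner membrane (0.23, adjusted p = 0.031), mtrf1l, a release factor (0.29, adjusted p = 0.041), and yars2, the tyrosyl-tRNA synthetase (0.25, adjusted p = 0.016).

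No gene of these lists was called in the mutant comparisons, where 0% of all genes tested were called, so this says nothing particular to the lists. At 27 hpf the median was 0.24 for mitoribosomal proteins under other symbols, 0.06 for translation factors, 0.05 for assembly genes and -0.23 for aminoacyl-tRNA synthetases, against 0.78 for the 89 cytosolic ribosomal proteins. At 21 hpf in the rbm8a line the same lists had medians of -0.06, -0.01, -0.01 and -0.10, with -0.17 for cytosolic ribosomal proteins. In the magoh line they were 0.25, 0.06, 0.07 and 0.13, with 0.34 for cytosolic ribosomal proteins, 78 of 89 of them above 0, against 56.1% of all genes. The paper reports structural ribosomal genes enriched among the genes it found downregulated in magoh mutants. That describes genes past its own test, while the values here describe every gene of a list by symbol, none of them called. The measures are unlike, and why they point in different directions was not tested. The smallest p among them at 27 hpf was that of ybey, which processes ribosomal RNA in bacteria, at 0.53 (adjusted p = 0.33), and on the low side that of ict1, a peptidyl-tRNA hydrolase of the large subunit, at -0.52 (adjusted p = 0.33). Read by place of the column at 27 hpf, the median of cytosolic ribosomal proteins was -0.18, against 0.78 by label. By place 23 of 89 (25.8%) were above 0, against 51.1% of all genes, and by label 82 of 89. Differences between lists were not tested.

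**Figure D5:**
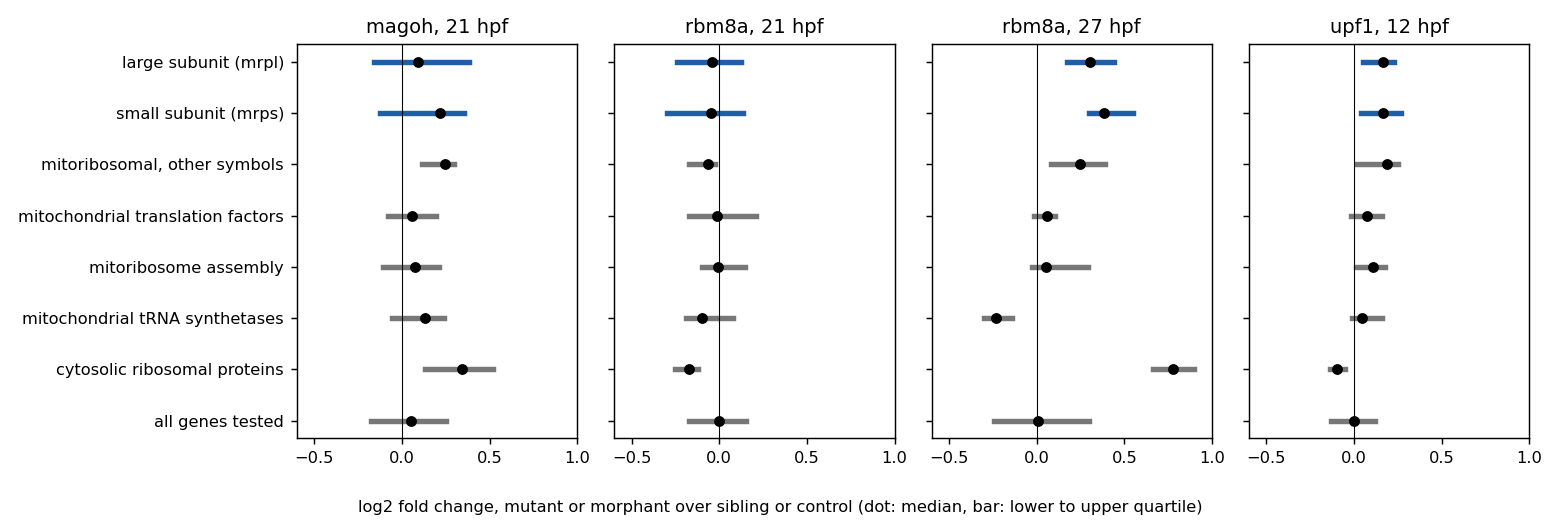
Median (dots) and lower to upper quartile (bars) of the log2 fold change (x axes; mutant or morphant over sibling or control) for the large and small mitoribosomal subunits (blue), the other lists and all genes tested (grey) in the 4 comparisons. In upf1 morphants the large and small subunits have medians of 0.16 and 0.17 and cytosolic ribosomal proteins one of -0.10. At 27 hpf in the rbm8a line cytosolic ribosomal proteins have 0.78 by label, against -0.18 by place of the column (not drawn).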

How the data were processed

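RNA-Seq values were analysed as deposited. The authors mapped reads to GRCz10 with TopHat2 (2.0.14 per the labels), counted reads per gene, removed genes without a read and scaled by DESeq2 size factors within a table. The deposited values are FPKM, and the deposited mean of normalized counts, a signal over the libraries of a table, was used by the present work only to recover reads (100% of values under 200 reads within 0.05 of a whole number), with no count model. Columns of the authors' own comparisons (fold changes, standard errors, test statistics, p and adjusted p) were not used, nor was the RIP-Seq table, which gives transcript IDs without gene names. Tables were scaled separately, so tests stay within a table.

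Libraries were grouped by their labels. A gene was tested if it had 0.5 FPKM or more in a number of libraries equal to the smaller group's size, as log2(FPKM + 1), a scale that understates the change of low genes, with limma 3.58.1 (trended prior, R 4.3.3), 2-sided, with 1 RUVs factor for the mutants (the number is not given in the sources used here) and none for the morphants, and Benjamini-Hochberg adjustment over all genes tested. The code was tested on simulated data. A call needs an adjusted p under 0.05 and a 1.5-fold change. Figures used Python 3.11.15 and matplotlib 3.10.9.

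Genes named are mrpl39, genes called, in each comparison the 4 with the smallest p on each side, the 3 highest and 3 lowest by mean FPKM, mrps6 and mrps22, and up to 2 on each side of the other lists, of which those past an adjusted p of 0.05 or with the smallest p are printed. Members, mrpl39 among them, and lists were chosen with earlier results of these data known. The fits were repeated with a pseudocount of 0.1, other FPKM minimums, 0 or 2 factors of unwanted variation, a block for the replicate number, quantile normalization, no fold threshold and each library left out, and, chosen after seeing the data, the magoh line without its 2 libraries of high level. Same-numbered libraries did not deviate together in every pair, so the numbers were not taken to pair them.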

Additional observations from a re-analysis of the deposited data

Results flagged for a closer look

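mrps33 stood on opposite sides of its siblings at the 2 ages of the rbm8a line. At 21 hpf all libraries labelled mutant lay below all siblings, and at 27 hpf all lay above, and the log2 fold changes of -0.30 and 0.60 differ by 0.896. This difference was not tested, neither value passed the test, and the 2 tables were scaled separately. Mutant replicates 2 and 3 at 21 hpf had the fewest reads at that age, with medians over the group of 7 and 15 reads.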

How the results depend on the processing

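mrpl39 was called lower in upf1 morphants in all 10 alternatives, with log2 fold changes between -1.79 and -1.63 and limma adjusted p between 1.52e-06 and 0.0056. With each library left out in turn its value lay between -1.64 and -1.63. Of all 169 values recomputed, 164 kept their main reading and 5 moved. Much of that tally was fixed in advance. A median counted as kept if it moved less than the spread between libraries, 0.81 in the magoh line. The magoh median thus counted as kept where it changed sign. Medians with no fold threshold equal the main ones, and many kept counts are 0 in mutant fits that called no gene. With no fold threshold the count of mitochondrial ribosomal genes higher in morphants was 32 in place of 0. Leaving out 1 library gave between 0 and 1 genes higher in the rbm8a line at 27 hpf, the 1 being mrpl28 without sibling replicate 2, where 370 genes were called higher and 242 lower in place of 0 and 0. The cause was not tested. In the morphants a pseudocount of 0.1 moved the group median to 0.18 and all calls to 384 higher and 517 lower, against 191 and 202, and no fold threshold gave 1907 and 2175. A replicate block changed no count of members called (1 lower in morphants, mrpl39 at -1.64, and 0 in each mutant comparison), and gave 196 genes higher and 218 lower. At any fold the block gave 37 members higher (15.2% of all genes) and 2 lower, in place of 32 and 1. In the rbm8a line at 27 hpf, 2 RUVs factors gave 25 genes higher and 7 lower, none of them mitochondrial ribosomal. Without mutant replicate 1 and sibling replicate 2, a choice made after seeing the data, 0 genes of the group were called in the magoh line. Depth limits the rbm8a line at 21 hpf, where the median of the group was 7 reads in mutant replicate 2 and 15 in replicate 3.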
